A study of Mus musculus with 9 samples.

Results

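The miR-99/100, miR-125 and miR-10 families were represented by 6 of the 206 probes on the arrays, chosen by name alone: miR-99a (probe miR99a), miR-99b (miR99b), miR-100 (miR100), miR-125a (miR125a), miR-125b (miR125b-1) and miR-10a (miR10a). All 6 matched a mouse microRNA gene, as did 195 of the 206 probes. miR-10b was not analysed here. On the scale of added control RNAs, miR-125a fell 44.6-fold below wild type in homozygous Dgcr8 knockout embryonic stem (ES) cells. Of the 87 tested microRNAs, 89.7% were called lower there. miR-99a (1.06-fold lower) and miR-99b (1.19-fold lower) did not pass the test. When each array was instead centred on its median, miR-125a did not pass and miR-99a and miR-99b were called higher. Centring takes out any loss that most microRNAs share, and 28.7% of all were then called higher. In the fibroblasts used as feeder layer, miR-99a and miR-125a were higher than in wild-type ES cells, as were 36.8% of the 87.

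MicroRNAs are cut from hairpins in longer primary transcripts by Drosha and its RNA-binding partner DGCR8, and Dicer then trims the hairpin to the mature strand. The miR-125 family is the mammalian relative of lin-4, which times larval development in Caenorhabditis elegans, and it is abundant in differentiated tissues such as the nervous system. The miR-99/100 family is related in sequence to miR-10, whose genes lie in Hox clusters, and it often shares a primary transcript with let-7 and miR-125. The let-7 family accumulates as stem cells differentiate.

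The mature sequences show which of these microRNAs can share targets and which differ so little that an array probe may not separate them. They were taken from RefSeq (GRCm38.p6, all on the plus strand), are given 5′ to 3′, and carry the seed, bases 2 to 8, in capitals. Let-7e is added because its gene lies between those of miR-99b and miR-125a.
miR-99a: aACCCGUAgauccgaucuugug
miR-99b: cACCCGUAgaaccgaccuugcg
miR-100: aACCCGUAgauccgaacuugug
miR-10a: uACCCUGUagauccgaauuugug
miR-125a: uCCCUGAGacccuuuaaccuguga
miR-125b: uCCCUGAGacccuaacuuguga
let-7e: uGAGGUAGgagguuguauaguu

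The 3 microRNAs of the miR-99/100 family share the seed ACCCGUA, miR-125a and miR-125b share CCCUGAG, and miR-10a has ACCCUGU. Counted from the 5′ end, miR-100 differs from miR-99a by the single substitution U16A, and miR-99b differs from miR-99a by A1C, U11A, U16C and U21C. With miR-10a moved by 1 base, 19 of 22 bases of miR-100 and 18 of 22 of miR-99a matched it without a gap. Probe sequences were not analysed here, and how far the probes of miR-99a and miR-100, in particular, read each other's microRNA was not tested. The miR-125b probe is named after Mir125b-1, but Mir125b-2 gives the same mature sequence.

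Genes of the members lie in 3 clusters with let-7 and in 1 Hox cluster. Mir99b (chr17:17830188-17830257), Mirlet7e (chr17:17830352-17830444) and Mir125a (chr17:17830812-17830879) lie within 692 bases, inside the coordinates of the protein-coding gene Spaca6. Mir100 (chr9:41531425-41531504), Mirlet7a-2 and Mir125b-1 (chr9:41581926-41582002) span 50578 bases, and Mir100 lies inside the long noncoding gene Mir100hg. Mir99a (chr16:77598936-77599000), Mirlet7c-1 and Mir125b-2 (chr16:77646273-77646343) span 47408 bases. Mir10a (chr11:96317165-96317274) lies inside the coordinates of Hoxb3, a homeobox gene of body patterning.

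Each of 9 two-colour arrays set the small RNA of 1 group against that of wild-type V6.5 mouse ES cells. The groups were ES cells with both Dgcr8 copies knocked out (lines 1 and 2, independent of each other, 2 arrays each), V6.5 ES cells with 1 copy knocked out (heterozygous, 3 arrays) and irradiated mouse embryonic fibroblasts (feeders, 2 arrays). The ES cells had been grown on such feeders and were passaged off them before RNA extraction, so every ES sample, wild type included, may carry feeder RNA. Each knockout line was hybridised in duplicate. Heterozygous RNA was prepared 2 times, and the arrays that share a preparation are not named. Nothing says that the feeder arrays were separate cultures. Outside the comparison of the knockout lines, the p-values rest on the scatter among heterozygous arrays and between the knockout lines, which may be technical, and not on that between feeder arrays, which were averaged.

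Values are log2 ratios of own RNA over wild-type RNA, on the scale set by control RNAs that were added in equal amount. The direction is likely rather than stated, and the base of the deposited logarithm was read on replicate 2 of line 1. The other arrays did not show their base, so the same base was assumed there, feeder folds included. The arrays held values for 84 to 133 of the 206 probes, and 87 mouse microRNAs had enough values to be tested together with limma. Of the 6 members, miR-99a, miR-99b, miR-125a and miR-125b were among them. Spot intensities were not analysed here, so it is unknown whether a ratio near 0 came from bright or dim spots. Dgcr8 mRNA is not among the probes, so the knockout itself was not checked on it. As a check of the labels, the 8 microRNAs of the mir-290 cluster, which mark mouse ES cells, were all lower in feeders (median -7.28). Of 8 tested fibroblast probes, from a list of 18 without members of these families, 7 were higher in feeders (median 2.89). The mir-290 cluster was also lost in the knockout (median -7.52), so it cannot mark those cells as ES cells. Of lists for other cells, both tested neuron probes and the 1 tested blood probe were called lower in knockout cells and in feeders. Muscle probes had a single value, on heterozygous replicate 2.

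miR-99a, a microRNA known to target mTOR in human cells, lay near the wild-type level in the knockout on the scale of the control RNAs. Line 1 gave ratios of 0.01 and -0.01 and line 2 gave -0.01 and -0.31, against -0.35, -0.15 and 0.18 on the heterozygous arrays. Knockout and heterozygous values overlapped, and 3 of the 4 knockout arrays lay almost exactly at 0. The knockout mean was -0.08 ± 0.11 (SD, n = 2 lines), and limma gave a fold of 0.946 with a 95% interval from 0.660 to 1.36 (adjusted p = 0.720).

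miR-99b behaved much like miR-99a in the ES cells. Line 1 gave 0.03 and -0.26, line 2 gave -0.24 and -0.54, and heterozygous cells gave -0.08, 0.04 and -0.00. Line 2 lay below all heterozygous values, whereas line 1 overlapped them. The knockout mean was -0.25 ± 0.20 (SD, n = 2 lines), a fold of 0.838 with a 95% interval from 0.609 to 1.15 (limma adjusted p = 0.232).

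miR-125a, of the lin-4 related family, was far below wild type on every knockout array on that scale. Its ratios were -5.37 and -5.03 in line 1 and -5.18 and -6.35 in line 2, against 0.91 and -0.21 on the heterozygous arrays with a value. The knockout signal was thus 1.23% to 3.07% of wild type, below both heterozygous values. How many of all tested microRNAs separated in this way was not counted, but 89.7% of the 87 were called lower. The mean of -5.48 ± 0.40 (SD, n = 2 lines) was called lower (limma adjusted p = 2.87e-05). It was not far from the median of all tested microRNAs, -5.98. Without any 1 knockout array it lay between -5.77 and -5.19 and stayed called. Without heterozygous replicate 2 or 3 it had too few values to be tested.

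miR-125b, with the same seed, gave unlike values in the knockout lines. In line 1 its only value was 0.26, on replicate 2, a dye-swapped array with values for 131 probes, against 93 on replicate 1. Line 2 had -4.90 and -4.34. The heterozygous ratios were -0.82 and -0.71. Line 2 thus lay far below the heterozygous cells, and the single array of line 1 lay above them. The mean of the knockout was -2.18 ± 3.45 (SD, n = 2 lines) and was not called (limma adjusted p = 0.118, 95% interval of the fold from 0.0296 to 1.65). With the arrays as single values miR-125b was called lower at -2.99 (90.8% of all lower). That setting counts duplicate hybridisations as replicates, so line 2 enters with 2 values and line 1 with 1.

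Knockout arrays gave no value for miR-100 or miR-10a, so neither was tested there. In the knockout, then, 1 of the 4 tested members was called lower and none higher, where 89.7% of the 87 microRNAs were called lower and 2.30% higher. Their median ratio was -1.22, against -5.98 for all 87. Counted from the highest ratio, miR-99a ranked 4 of 87, miR-99b 6, miR-125b 11 and miR-125a 34. In these bulk samples, fewer cells holding a microRNA and less of it per cell cannot be told apart.

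**Figure D1:**
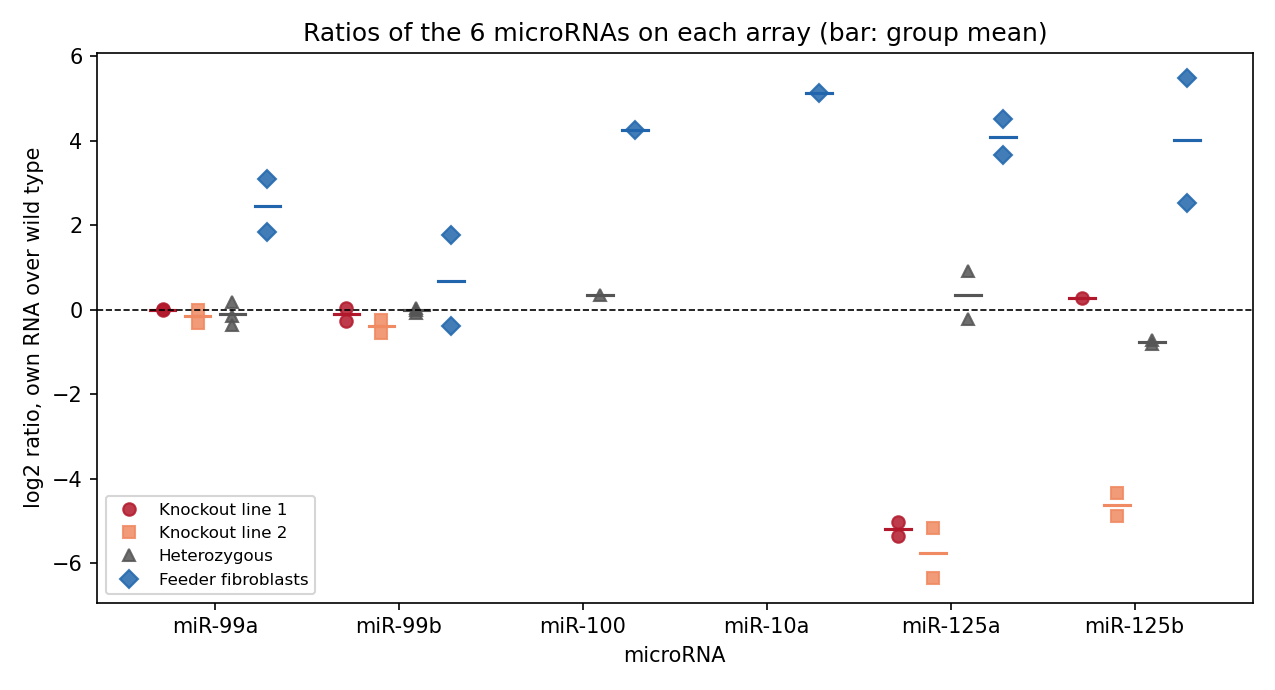
Log2 ratios of own RNA over wild-type RNA (y axis) of the 6 microRNAs (x axis), with 1 point per array and a bar at each group mean; the dashed line is wild type. miR-99a and miR-99b stay between -0.54 and 0.03 in both knockout lines, miR-125a lies between -6.35 and -5.03, and miR-125b is at 0.26 in line 1 but near -4.62 in line 2. These ratios are on the scale of the control RNAs, and centring turns all 4 knockout means above 0.

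The direction of these calls depends on the scale. When each array was centred on the median of its mouse probes, the median of the knockout ratios moved by 5.64, to -0.34. Centring sets the median of each array to 0, so it takes out a loss shared by most microRNAs. A microRNA that does not share this loss then comes out higher. On that scale miR-99a (5.57) and miR-99b (5.39) were called higher, miR-125b (3.32) and miR-125a (0.17) were not called, and no member was called lower. The background was then 37.9% lower and 28.7% higher. miR-99a and miR-99b stood well above miR-125a in the knockout. Centring subtracts the same number from every probe of an array, so it could not change this contrast.

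The mir-99b cluster put this contrast within 692 bases of the genome. The difference between its microRNAs on the same array is free of the array's scale. miR-125a minus miR-99b was -5.40 and -4.76 log2 units for line 1 and -4.93 and -5.80 for line 2, against 0.87 and -0.21 in heterozygous cells. The 4 knockout arrays were thus all below the heterozygous ones, and miR-125a was 27.1-fold to 55.8-fold lower relative to miR-99b than in wild type. In feeders the difference was 2.76 and 4.06, on the other side of 0. These differences between microRNAs were not tested.

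Let-7e, whose gene lies between the others, lay closer to miR-99b than to miR-125a in the knockout. Its ratios were -0.24 and -0.58 in line 1 and -0.70 and -1.61 in line 2, against 0.46, 0.38 and 1.06 in heterozygous cells. It was called lower at -0.78 ± 0.53 (SD, n = 2 lines, limma adjusted p = 0.0340). The call was lost without replicate 2 of line 1 (-0.70) or replicate 2 of line 2 (-0.56), and with heterozygous arrays 1 and 2 averaged as if they shared a preparation (limma adjusted p = 0.0579). After centring let-7e was called higher (4.86). Within arrays, let-7e minus miR-99b was between -1.07 and -0.28 in the knockout and between 0.34 and 1.06 in heterozygous cells. The difference between miR-125a and let-7e was -5.13 to -4.44 on the knockout arrays.

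**Figure D2:**
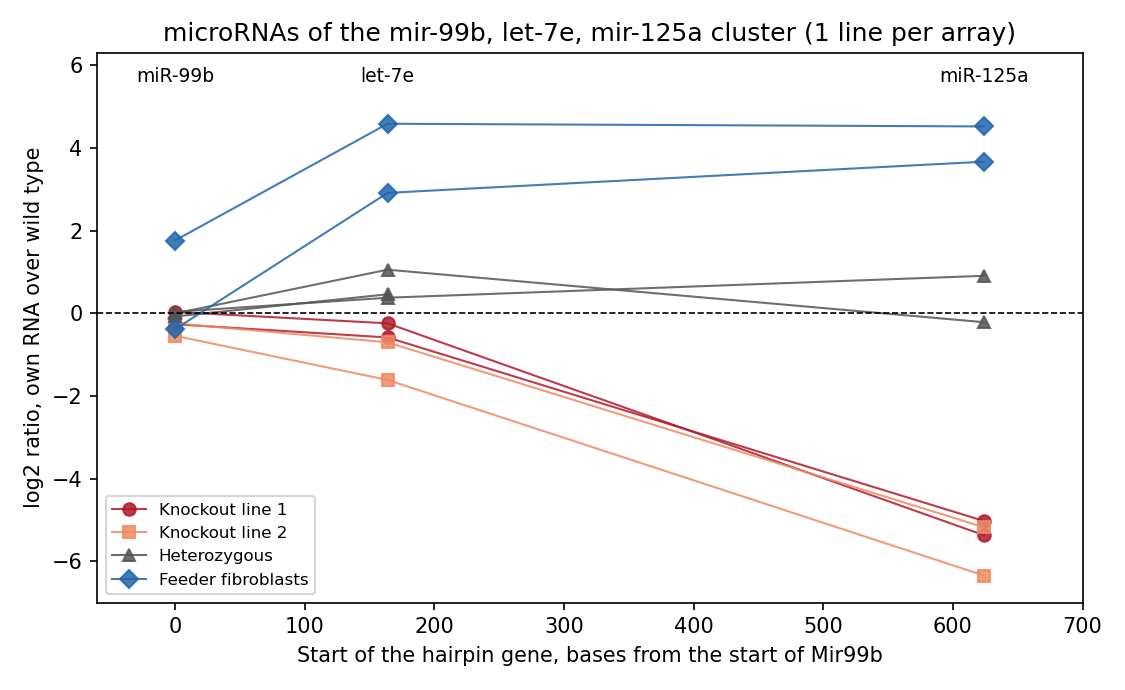
Log2 ratios over wild type (y axis) of miR-99b, let-7e and miR-125a, placed by the start of their hairpin genes in bases from the start of Mir99b (x axis), with 1 line per array. On all 4 knockout arrays the line drops to between -6.35 and -5.03 at miR-125a, while miR-99b stays between -0.54 and 0.03; both feeder lines are higher at miR-125a than at miR-99b. Levels are on the scale of the control RNAs (centring moves each line as a whole).

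The other clusters gave fewer values. In the mir-99a cluster, let-7c had no value in line 1 and 0.02 and -1.63 in line 2, against 0.00 and 0.40 in heterozygous cells. miR-125b, which Mir125b-2 of this cluster or Mir125b-1 may supply, differed from miR-99a on the same array by 0.27 in line 1 and by -4.89 and -4.02 in line 2, against -0.47 and -0.56 in heterozygous cells. In the mir-100 cluster, the let-7a probe, which does not separate the let-7a genes, had -0.03 and -0.33 in line 1 and 0.44 and -0.84 in line 2, against 0.08 and 0.16 in heterozygous cells. Let-7a was not called (-0.19 ± 0.02, SD, n = 2 lines, limma adjusted p = 0.378), and after centring it was called higher (5.45). The sign of its mean turned to 0.13 without replicate 2 of line 2. Of the list of let-7a, let-7c, let-7e and the Hox microRNA miR-196a, 2 were tested, of which let-7e was lower.

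DGCR8 acts on the hairpin rather than the mature strand, so the hairpins of the members with the highest and the lowest knockout ratio are printed with the mature strand in capitals, from RefSeq (GRCm38.p6).
Mir99a: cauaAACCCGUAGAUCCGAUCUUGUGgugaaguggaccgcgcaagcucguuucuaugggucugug
Mir125a: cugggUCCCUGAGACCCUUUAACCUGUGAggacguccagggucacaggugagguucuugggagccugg
Both annotated hairpins carry the mature strand on their 5′ arm, starting at base 5 of 65 in Mir99a and at base 6 of 68 in Mir125a. Their G and C content was 52.3% in Mir99a and 60.3% in Mir125a. With 1 hairpin of each kind, these features are a description only.

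The 2 knockout lines were compared with the 9 arrays as single values, a test that covers the spread of hybridisation only. No member passed, and none of the 87 microRNAs did (limma, 0.00%); at an unadjusted p under 0.05 there were 13, miR-125b among them. miR-125b was 4.88 log2 units higher in line 1 than in line 2 (limma adjusted p = 0.064), with 1 array against 2. Line 1 thus takes its spread from the other groups. Leaving out a feeder array changes no value of either line. It takes the feeder scatter of miR-125b (5.48 and 2.52) out of the shared spread. With these limits, miR-125b was called higher in line 1 when either feeder array was left out. It was also called when only the groups compared needed values (adjusted p = 0.0219), where 0.885% of 113 probes were called higher. The other tested members differed by 0.56 (miR-125a), 0.28 (miR-99b) and 0.16 (miR-99a), with limma adjusted p of 0.725, 0.867 and 0.924.

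Fibroblast microRNAs were measured on the array that gave miR-125b its value in line 1. On replicate 2 of line 1 the 11 fibroblast probes with a value had a median of -4.50 and ranged from -5.33 to -1.89, so all were below miR-125b at 0.26. The medians were -5.07 on replicate 1 of line 1 (7 probes) and -4.97 and -5.94 on replicates 1 and 2 of line 2 (10 and 9 probes). The 8 tested fibroblast probes were higher in line 1 than in line 2 by a median of 1.23, with 1 of 8 below 0 and none called. The median of all 87 tested microRNAs was -0.29 in this comparison.

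Loss of 1 Dgcr8 copy moved no tested member past the threshold. None was called in heterozygous cells (limma, 0.00% of all 87 called either way), and none of the 4 had an unadjusted p under 0.05, where 7 of the 87 did. The means were 0.35 ± 0.79 for miR-125a (SD, n = 2 arrays), -0.77 ± 0.08 for miR-125b (n = 2), -0.11 ± 0.27 for miR-99a (n = 3) and -0.01 ± 0.06 for miR-99b (n = 3). miR-125b ranked 4 of 87 from the lowest, with both of its arrays below 0. The 95% intervals of the fold ran from 0.0788 to 4.39 for miR-125b, whose spread includes that between the knockout lines, from 0.686 to 2.36 for miR-125a, from 0.692 to 1.25 for miR-99a and from 0.763 to 1.28 for miR-99b. miR-100 had 0.34 on replicate 2 alone.

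Set directly against heterozygous cells, the knockout had 1 of 4 tested members called lower. A wild-type level common to all arrays cancels in this comparison, but each array's error in its wild-type signal stays. miR-125a differed by -5.83 log2 units (56.7-fold lower, limma adjusted p = 0.000112), and the other 3 tested members were not called, with miR-125b at -1.41, miR-99b at -0.24 and miR-99a at 0.03. Of all 87 microRNAs, 90.8% were called lower and 2.30% higher. After centring, miR-125a was not called (-0.12), and miR-99a (5.65) and miR-99b (5.38) were called higher, where 31.0% of all were lower and 26.4% higher and the median of all had moved by 5.59.

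Per the series text, feeders were measured to see whether some of the signal in knockout cells came from feeder RNA. In them miR-125a ranked 5 of the 87 tested microRNAs, with ratios of 4.52 and 3.67 over wild-type ES cells. Its mean was 4.10 ± 0.60 (SD, n = 2 arrays, limma adjusted p = 0.00125). Feeder arrays were averaged first, so no p-value of the main test in feeders uses the SD between them. The 87 needed values in both knockout lines, so some microRNAs with higher feeder ratios, such as miR-214 (5.82 and 4.13), were not ranked. miR-99a had 3.09 and 1.84 and was also called higher (2.46 ± 0.88, adjusted p = 0.000638). Both of these were called higher in each alternative in which they were tested, down to 2.85 for miR-125a and 1.21 for miR-99a after centring (13.8% of all then higher).

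miR-125b and miR-99b were not called in feeders. miR-125b had 5.48 and 2.52, both above wild type. The test took their mean as 1 value, and its spread came mostly from the knockout lines (SD 3.45), not from the feeder arrays. On that basis miR-125b had a 95% interval of the fold from 0.934 to 276 (limma adjusted p = 0.0699). It was called higher without feeder replicate 2 (5.48), without replicate 2 of line 2 (adjusted p = 0.0449), and with single arrays (adjusted p = 0.00982, 36.8% of all higher). It was also called with the random block (adjusted p = 0.00348), the dye term (adjusted p = 0.00971) and the replicate block (adjusted p = 0.0121), and when only the groups compared needed values (adjusted p = 0.0367, where 55.7% of 131 probes were higher). The settings with single arrays, the dye term and the replicate block count each array as independent. miR-99b had 1.76 and -0.39, so its arrays lay on opposite sides of wild type. With a mean of 0.69 ± 1.52 (SD), miR-99b was not called by a test that leaves out this SD (limma adjusted p = 0.0545). It was called higher without feeder replicate 2 (1.76) and without replicate 1 of line 1 (0.69), and it lay at -0.56 after centring.

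miR-100, which differs from miR-99a by the 1 base given above, had 4.26 on feeder replicate 2, and miR-10a had 5.13 there. The Hox microRNA miR-196a had 3.42. Feeder replicate 1 and the knockout arrays gave no value for these 3. Feeder replicate 2 was dye-swapped and had values for 133 probes, against 93 on replicate 1. The feeder signal on replicate 2 was thus 19.2-fold the wild-type signal for miR-100 and 35.1-fold for miR-10a. With 1 feeder array each, these are values without a replicate check, and no test is given for them. In the test of 87, 2 of the 4 members were called higher and none lower, where 36.8% were called higher and 36.8% lower. The medians were 3.23 for the members and 0.15 for all 87, a set without the microRNAs that lacked values in either knockout line. Centring moved the median of all by -1.19.

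Let-7e and let-7a were called higher in feeders too, also after centring. Let-7e had 4.59 and 2.91 (mean 3.75 ± 1.18, SD, n = 2 arrays, limma adjusted p = 0.000327) and let-7a had 6.77 and 3.68 (mean 5.23 ± 2.19, adjusted p = 6.57e-05). Let-7c, which was not tested, had 7.16 and 4.41. Within the mir-99b cluster, let-7e exceeded miR-99b by 2.83 and 3.30 in feeders, and miR-125a and let-7e lay close together, with differences of -0.07 and 0.76.

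**Figure D3:**
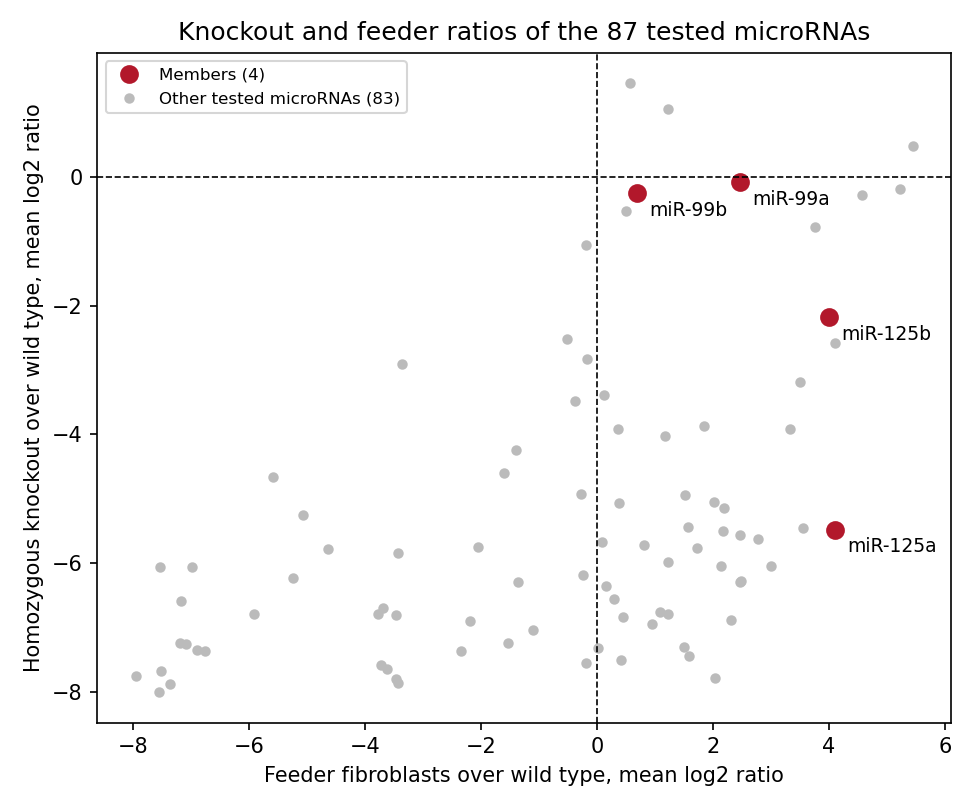
Mean log2 ratio over wild type in the homozygous knockout (y axis) against that in feeder fibroblasts (x axis) for the 87 tested microRNAs; both ratios share the wild-type reference. The 4 members lie right of 0 in feeders, from 0.69 to 4.10, and spread in the knockout from -0.08 for miR-99a to -5.48 for miR-125a, on the scale of the control RNAs.

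Knockout cells were last set against feeders, where a wild-type level common to all arrays again cancels but each array's error in its wild-type signal stays. On the scale of the control RNAs all 4 tested members were called lower in the knockout, where 75.9% of all were lower and 1.15% higher. miR-125a differed by -9.58 log2 units (763-fold lower, limma adjusted p = 5.88e-05), the second lowest of all 87. miR-125b differed by -6.18 (adjusted p = 0.0337), miR-99a by -2.54 (adjusted p = 0.000789) and miR-99b by -0.94 (adjusted p = 0.0365).

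The calls of miR-125a and miR-99a in this comparison were kept without any single array that left them testable. That of miR-99b was kept in 4 of 19 alternatives, and without feeder replicate 1 it lay at 0.13. It was also lost without any 1 of the heterozygous arrays, replicate 2 of line 1 or replicate 2 of line 2. That of miR-125b was lost without feeder replicate 1 (-4.70), replicate 1 of line 1 (-6.18) or replicate 1 of line 2 (-6.04). After centring, which moved the median of all microRNAs by 6.89, miR-99a (4.35) and miR-99b (5.95) were called higher, miR-125b was not called (0.57) and miR-125a stayed lower (-2.68). Of all 87, 11.5% were then lower and 56.3% higher.

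**Figure D4:**
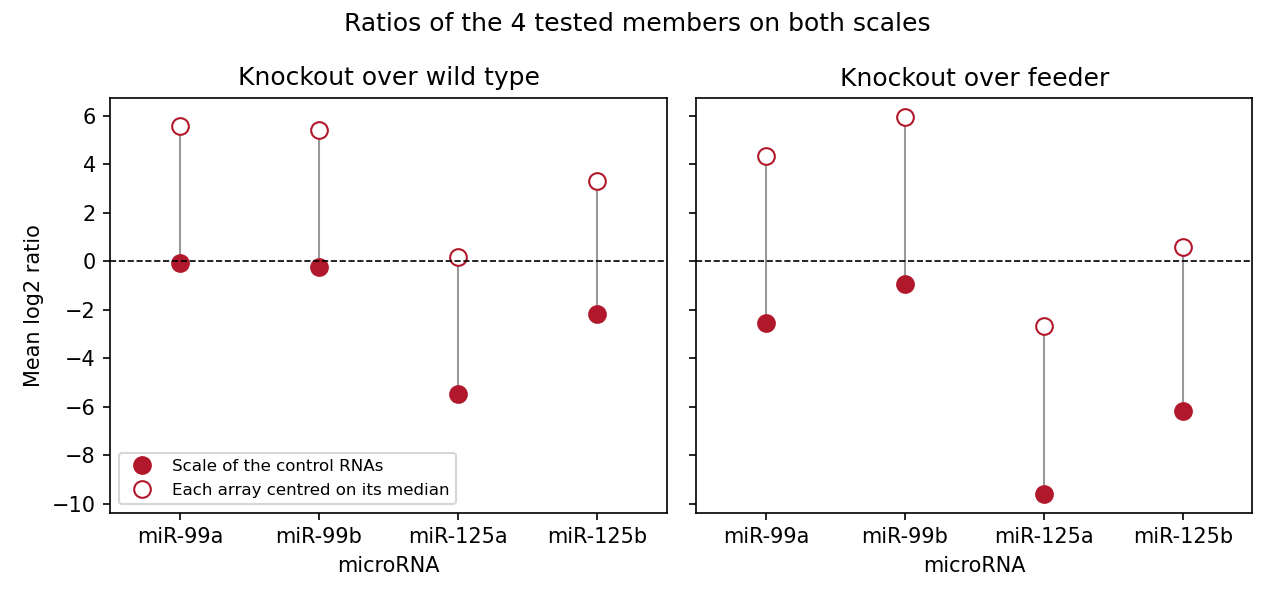
Mean log2 ratios (y axis) of the 4 tested members (x axis) in the knockout over wild type (left) and over feeders (right), on the scale of the control RNAs (filled) and after centring each array on its median (open). Centring lifts all 4 members; miR-99a and miR-99b then lie between 4.35 and 5.95 in both comparisons, and miR-125a lies at 0.17 and -2.68.

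On the scale of the control RNAs, the knockout held very different shares of the feeder signal for these microRNAs. The knockout signal was 52% of the feeder signal for miR-99b, 17.2% for miR-99a, 1.38% for miR-125b and 0.131% for miR-125a. Across the 10 fibroblast probes with values in both lines and in feeders it was 0.189% to 1.07%, with a median of 0.417%, so miR-99a and miR-99b lay above all of them. The mean share of miR-125a lay below them, but with feeder replicate 1 alone miR-125a (0.0975%) was above miR-21 (0.0414%) and miR-22 (0.0645%), and in line 2 it (0.108%) was level with miR-21 (0.107%). For let-7e it was 4.31% and for let-7a 2.34%. With feeder replicate 1 alone the shares were 24.7% for miR-99b and 11.1% for miR-99a, and with replicate 2 alone 110% and 26.5%. For miR-125b they were 7.48% in line 1 and 0.254% in line 2.

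The microRNA patterns closest to each member were found over the 4 group means (line 1, line 2, heterozygous, feeders) among 98 mouse probes, as the smallest mean absolute difference in log2 ratio. Closest to miR-99a were miR-99b (0.55), let-7b (0.72) and let-7a (0.80). Closest to miR-99b were miR-138 (0.31), miR-99a (0.55) and miR-126* (0.80). Closest to miR-125a were miR-27a (0.41), miR-22 (0.46) and miR-26a (0.47), and to miR-125b miR-29b (0.93), miR-222 (1.30) and let-7d (1.33). miR-27a, for example, had -5.20 in line 1, -6.05 in line 2, 0.33 in heterozygous cells and 2.78 in feeders, where miR-125a had -5.20, -5.76, 0.35 and 4.10.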

How the data were processed

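The deposited table held 1 value per probe and array. Per the labels' protocols, gel-cut small RNA was mixed with control RNAs, tailed, ligated to capture sequences and hybridised in 2 colours against wild-type RNA. Replicate 2 of every group had its dyes swapped. Per the series text, the authors normalised the ratios on the control RNAs. Of the scanner, background correction and spot filter, the sources used here say nothing.

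The deposited values were read as log10 ratios. On replicate 2 of line 1, 10 raised to each of the 90 lowest values (ratios under 0.05) came back as a ratio with 4 decimals. Chance would give 3.84%. On the other knockout arrays only 1 of 76, 2 of 68 and 4 of 75 such values did so, and on the feeder arrays 0 of 12 and 0 of 17. The heterozygous arrays had too few such values to tell. The columns of line 1 replicate 1 and feeder replicate 1 hold the same measure as the others, but 2 and 1 of their deposited cells are spreadsheet errors. Errors and empty cells were treated as missing. Values were multiplied by 3.3219 to give log2, with no pseudocount.

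Limma 3.58.1 in R 4.3.3 (lmFit, eBayes) was fitted to 6 values per probe: 1 for each knockout line (array mean), 3 heterozygous arrays and 1 feeder mean. It covered 87 mouse probes measured on at least 2 heterozygous arrays, both lines and 1 feeder array. Ratios were tested against 0, so scatter among wild-type samples is not covered, and the single feeder value borrowed its spread from the other groups. The Benjamini-Hochberg method adjusted p-values over the 87 probes, and calls needed an adjusted p under 0.05. The fit was tested on simulated data with large planted changes and a common noise level. That simulation held no spread between lines or cultures, so it says nothing on small changes or on such spread. With so few arrays, their number limits precision. The members, the let-7 and Hox neighbours and the marker lists were chosen with earlier results of these data known. All members and neighbours were named, and the 3 closest patterns of each member with means in all 4 groups. Alternatives varied the centring, the treatment of replicates, the dye, the filter and the arrays used.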

Additional observations from a re-analysis of the deposited data

Results flagged for a closer look

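Among the 4 knockout arrays, replicate 2 of line 2 stood apart for miR-99a, at -0.31, while the other 3 lay between -0.01 and 0.01. The gap was 0.956 of the whole range, above Dixon's critical value for 4 samples. The arrays come from 2 lines and are not 4 independent samples. Chance alone gives a gap above the critical value in about 1 of 20 groups. Both ends were checked for every member and let-7 neighbour with values on all 4 arrays, so this was 1 of several checks. Replicate 2 of line 2 was also the lowest of the knockout arrays for miR-99b (-0.54), miR-125a (-6.35), let-7a (-0.84) and let-7e (-1.61), with gaps below the critical value. Without it the knockout mean of miR-99a was -0.00.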

How the results depend on the processing

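Over the members, let-7a and let-7e, 417 of 476 repeats under another setting kept direction and call, 20 lost a call, 17 gained one and 22 changed sign. The scale mattered most. After centring, the count of members called in the knockout over wild type was 0 lower and 2 higher, the count lower over heterozygous cells was 0 and over feeders 1. The centred values that turned were, over wild type, 0.17 (miR-125a), 3.32 (miR-125b), 5.57 (miR-99a), 5.39 (miR-99b), 5.45 (let-7a) and 4.86 (let-7e); over feeders, 0.57 (miR-125b), 4.35 (miR-99a) and 5.95 (miR-99b); over heterozygous cells, 4.01 (miR-125b) and 5.38 (miR-99b). miR-99b also turned to -0.56 in feeders and 0.01 in heterozygous cells. With single arrays, with a random block, with a dye term and with the replicate block, 2 members were lower in the knockout, as miR-125b joined miR-125a. All but the random block count each array as independent, and each lets line 2 give miR-125b more values than line 1. With heterozygous arrays 1 and 2 averaged, let-7e lost its call in the knockout (adjusted p = 0.0579). Replicate numbers paired too few groups (correlations of deviations from 0.04 to 0.39) for the block to be more than an alternative. With only the compared groups needing values, 5 members were higher in feeders and 1, miR-125b, differed between the lines. Of the 5, miR-100 and miR-10a entered through feeder replicate 2 alone, so their part of that count is no evidence. With values on all 9 arrays, only miR-99a and miR-99b could be tested. Then 0 were lower in the knockout over wild type or heterozygous cells, 1 was higher in feeders and 2 were lower than in feeders. Of all 58 microRNAs tested there, 55 were lower over wild type and 55 over heterozygous cells. In feeders 19 of the 58 were higher, and 44 were lower in the knockout than in feeders. With heterozygous arrays 1 and 2 averaged, miR-99a turned to -0.05 over heterozygous cells. Leaving out 1 array at a time gave 0 to 1 members lower in the knockout over wild type and over heterozygous cells, 1 to 4 higher in feeders, 1 to 4 lower than in feeders and 0 to 1 different between the lines. The counts of 0 over wild type and over heterozygous cells came from leaving out heterozygous replicate 2 or 3, where miR-125a could not be tested. In the main test, 36.8% of all microRNAs were higher in feeders and 75.9% were lower in the knockout than in feeders. The count between lines was 1 without either feeder array and 0 without any other. In the same repeats signs turned within -0.02 to 1.15 for miR-125a between lines, -0.25 to 0.02 for miR-99a and -0.04 to 0.02 for miR-99b in heterozygous cells, -0.10 to 0.17 for miR-99a over heterozygous cells, -0.39 to 1.76 for miR-99b in feeders, -2.02 to 0.13 for miR-99b over feeders and -0.51 to 0.13 for let-7a in the knockout. Members lower in feeders, or changed in heterozygous cells, numbered 0 in all 19 settings. The random block was not run between lines. The cause of these changes was not tested beyond what each setting leaves out. Signal over background is unknown, which limits all ratios near 0.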
